A study of Mus musculus with 8 samples.

Results

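The genes described here encode the MHC class II molecule of the mouse, the invariant chain, the peptide-loading molecules H2-M and H2-O, and the class II transactivator. They are Cd74, H2-Aa, H2-Ab1, H2-Eb1, H2-DMa, H2-DMb1, H2-DMb2, H2-Oa and Ciita, chosen by name and matched to their Ensembl identifiers, which made 9 of the 54532 genes counted. RNA-Seq was performed on bone marrow-derived macrophages (BMDMs), grown for 7 days from the marrow of 6 to 8 week old mice in medium with L929 cell supernatant. The study's methods give a C57BL/6J background. The 8 libraries formed 4 groups of 2. WT cells and Trex1-KO cells (from Trex1-/- mice, which lack the exonuclease that degrades cytosolic DNA) received the vehicle DMSO, and Trex1-KO+H151 and Trex1-KO+SN-011 cells came from Trex1-/- mice and received a small-molecule antagonist of STING, the adaptor that answers cytosolic DNA. Incubation lasted 12 h in each group, and H151 was given at 500 nM. The labels state no dose for SN-011, and the study's methods state the same dose for both antagonists. WT cells with an antagonist were not analysed here, so each antagonist effect below is one in Trex1-KO cells. The labels do not say whether the libraries of a group came from separate mice, so p-values measure only the spread between these libraries.

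MHC class II molecules are heterodimers of an alpha and a beta chain that show peptides from endocytosed proteins to CD4+ T cells. The invariant chain, Cd74, fills the peptide groove of newly made dimers and leads them to endosomes, where H2-M (H2-DMa with a beta chain from H2-DMb1 or H2-DMb2) exchanges its remnant for peptide. H2-O (H2-Oa with H2-Ob) restrains H2-M, mostly in B cells. Ciita binds no DNA itself. It joins the RFX, NF-Y and CREB factors that sit on the X and Y boxes of class II promoters, and its own transcription is known to rise in macrophages given interferon-gamma, with Irf1 among the factors that act on it.

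Promoter sequence is shown because most members moved together and share a known promoter design. RefSeq promoter entries (GRCm38.p6) were matched for 6 of the 9 members. No entry was matched for H2-Ab1, Cd74 or Ciita. Bases 140 to 31 upstream of the start site are printed 5′ to 3′ on the gene's own strand, on chromosome 17, for the 5 members with a match, with the matched motifs in capitals. The windows are chr17:34287854-34287963 on the minus strand for H2-Aa and, on the plus strand, chr17:34305727-34305836 for H2-Eb1, chr17:34153051-34153160 for H2-DMb1, chr17:34145109-34145218 for H2-DMb2 and chr17:34092239-34092348 for H2-Oa.
H2-Aa: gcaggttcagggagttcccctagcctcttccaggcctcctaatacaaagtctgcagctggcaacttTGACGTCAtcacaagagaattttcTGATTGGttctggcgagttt
H2-Eb1: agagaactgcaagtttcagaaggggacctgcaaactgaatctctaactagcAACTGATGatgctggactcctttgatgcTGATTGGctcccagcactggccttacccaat
H2-DMb1: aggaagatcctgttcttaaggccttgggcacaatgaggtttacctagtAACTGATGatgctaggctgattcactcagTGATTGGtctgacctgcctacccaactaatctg
H2-DMb2: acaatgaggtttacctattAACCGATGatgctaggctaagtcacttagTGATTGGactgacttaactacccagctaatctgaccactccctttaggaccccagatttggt
H2-Oa: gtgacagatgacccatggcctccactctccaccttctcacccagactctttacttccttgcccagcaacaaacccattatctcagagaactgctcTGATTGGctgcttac

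The patterns searched on both strands were an X box core (AACNGATG), a Y box core (TGATTGG) and a CRE-type palindrome (TGACGTCA), in the windows from 250 bases before to 50 after each start site. An X box core followed by a Y box core stood in H2-Eb1 (first bases 89 and 61 upstream of the start), H2-DMb1 (92 and 63) and H2-DMb2 (121 and 92). H2-Aa had the palindrome 74 and the Y box core 50 bases upstream, and H2-Oa had a Y box core 45 bases upstream. Neither of the listed starts of H2-DMa held any of the patterns in these letters. Of 32851 RefSeq promoter windows, 2.32% held the X box core, 7.82% the Y box core and 1.79% the palindrome. The X box core followed by the Y box core, with 15 to 40 bases between their first bases, was found in 5 windows (0.0152%), those of H2-DMb2, H2-DMb1, H2-Eb1, H2-Eb2 and BC051142. The motifs were chosen after the sequences had been seen, so these shares are a description and not an independent result. Among the members with the pair, H2-Eb1 and H2-DMb1 were called higher in Trex1-KO cells and H2-DMb2 was not, as given below.

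**Figure D1:**
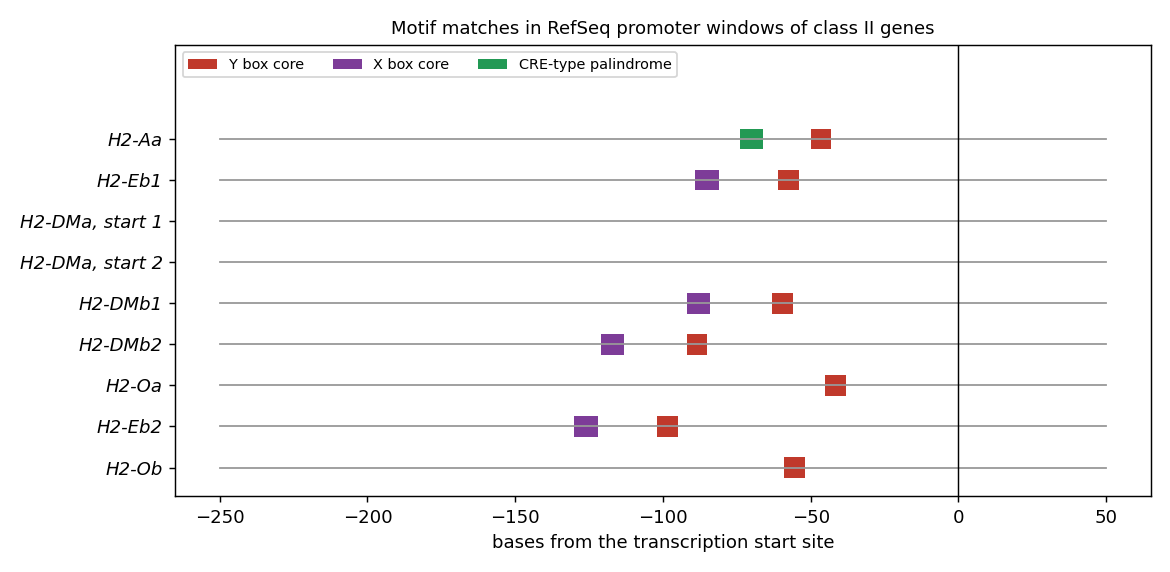
Distance in bases from the transcription start site (x axis) of each motif match in the RefSeq promoter windows of class II genes (1 line per listed start). H2-Eb1, H2-DMb1, H2-DMb2 and H2-Eb2 carry an X box core 28 or 29 bases before a Y box core, and both listed H2-DMa starts are without a match.

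In mouse genome build GRCm38, 7 of the members lie on chromosome 17, in the class II region of the MHC. H2-Aa (ENSMUSG00000036594) spans 34282744 to 34287823 on the minus strand and H2-Ab1 (ENSMUSG00000073421) spans 34257689 to 34269419 on the plus strand. H2-Eb1 (ENSMUSG00000060586) spans 34305867 to 34316674. H2-DMa (ENSMUSG00000037649) spans 34119541 to 34139101, H2-DMb2 (ENSMUSG00000037548) 34143307 to 34151555, H2-DMb1 (ENSMUSG00000079547) 34153072 to 34160230 and H2-Oa (ENSMUSG00000024334) 34092340 to 34095234, and these 5 genes are on the plus strand. Cd74 (ENSMUSG00000024610) spans 60803848 to 60812652 on chromosome 18, and Ciita (ENSMUSG00000022504) spans 10480059 to 10528418 on chromosome 16, both on the plus strand. Exons of other genes cover 22.81% of the exonic length of H2-Oa, 10.44% of that of H2-DMa (Brd2), 3.45% of that of Ciita and 0.71% of that of Cd74. The longest transcripts of H2-DMb1 and H2-DMb2 were 94.7% identical over 1219 aligned bases. Of the 150-base windows, 4.71% of those of H2-DMb1 and 4.14% of those of H2-DMb2 occurred in both genes, so their counts could be split between them.

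Total counts ran from 11845470 to 17284863 per library, so the floor of 3 counts equalled 0.175 to 0.255 CPM, which is the count scaled for library depth with TMM factors. The floor accounts for counting error alone, because reads carried no molecular identifiers and duplicates of a molecule cannot be set aside. Trex1 had 0 counts in all 8 libraries, WT included, and 100% of its 1147 exonic bases lie within exons of Atrip, so these counts could not check the knockout. All 7 macrophage markers were detected, at a summed 29637 to 31878 CPM per library, most of it Lyz2. Of the 7, edgeR called 3 higher after loss of Trex1, beside 9.27% of all tested genes. These were Fcgr1 (log2 1.14 ± 0.08), Cd68 (0.44 ± 0.06) and Adgre1 (0.19 ± 0.05). Fcgr1 was called lower with H151 (log2 -0.50) and with SN-011 (log2 -0.49) against vehicle. Of all tested genes, 1.84% were called lower with H151 and 2.22% with SN-011. The SN-011 libraries carry a treatment text of their own and belong to a later set of records, so SN-011 and a difference between sets of libraries cannot be told apart. In bulk RNA, fewer cells of a type and less RNA per cell cannot be told apart either.

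The 9 members together took 0.0166% and 0.0168% of all counts in WT, 0.0407% and 0.0416% in Trex1-KO, 0.0414% and 0.0425% with H151, and 0.0332% and 0.0335% with SN-011. Per kilobase of principal transcript, Cd74 led in WT at 49.4 ± 4.01 CPM (SD, n = 2), followed by H2-Ab1 at 16.2 ± 0.451, H2-DMb1 at 15.8 ± 0.357, H2-Aa at 14.2 ± 1.38, H2-DMa at 9.11 ± 0.642 and H2-Eb1 at 8.42 ± 0.555. H2-Ab1 and H2-DMb1 overlapped between libraries, as did H2-DMa and H2-Eb1. H2-DMb2 at 1.11 ± 0.321 and Ciita at 0.540 ± 0.0184 came last among the members above the floor. In Trex1-KO cells H2-Aa (50.8 ± 1.34 CPM per kb), H2-Ab1 (47.5 ± 6.81) and H2-Eb1 (25.0 ± 0.648) all stood above H2-DMb1 (21.8 ± 0.305), and H2-Aa and H2-Ab1 overlapped. Cd74 led with either length, and the places below it depended on the length used. Over all annotated exons the WT order was H2-DMb1 at 13.2 CPM per kb, H2-Ab1 at 7.65, H2-Eb1 at 7.23, H2-DMa at 4.38 and H2-Aa at 4.22, and in Trex1-KO cells it was H2-Ab1 at 22.4, H2-Eb1 at 21.5, H2-DMb1 at 18.2, H2-Aa at 15.1 and H2-DMa at 6.76.

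The first comparison asks what the loss of Trex1 did to class II expression. The invariant chain and the classical class II chains rose 2.90- to 3.56-fold in Trex1-KO cells, Ciita rose 2.38-fold and the chains of H2-M encoded by H2-DMa and H2-DMb1 rose less. Of the 8 members that passed the filter on low counts, 7 were called higher at a false discovery rate (FDR) of 0.05 (edgeR quasi-likelihood F-test, Benjamini-Hochberg adjustment over 14591 genes). Over all tested genes, 9.27% were called higher and 7.11% lower. The 7 called members also had both Trex1-KO libraries above both WT libraries, which 28.6% of all tested genes had. The median log2 fold change of the 8 members was 1.39, beside -0.0020 over all tested genes.

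Cd74, the invariant chain, was the most abundant member. Its level was 73.7 and 65.7 CPM in WT and 206.6 and 197.9 CPM after loss of Trex1. The groups were far apart, and the log2 fold change was 1.54 ± 0.07 (approximate SE, edgeR adjusted p = 8.33e-09), a fold of 2.90.

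H2-Aa encodes the alpha chain of the H2-A heterodimer and had the largest log2 fold change among the members. It went from 14.9 and 17.1 CPM in WT to 58.3 and 56.2 CPM in Trex1-KO, a 3.56-fold change (log2 1.83 ± 0.09, edgeR adjusted p = 1.35e-08). Its partner, the beta chain gene H2-Ab1, went from 20.0 and 19.2 CPM to 51.8 and 63.4 CPM, with more spread between the Trex1-KO libraries, and the fold was 2.94 (log2 1.56 ± 0.12, edgeR adjusted p = 1.03e-06). The ratio of H2-Aa to H2-Ab1 per kilobase was 0.802 and 0.957 in WT and 0.952 and 1.21 in Trex1-KO, so the groups overlapped.

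H2-Eb1 encodes the beta chain of the H2-E heterodimer. It stood at 13.4 and 14.7 CPM in WT and 42.5 and 41.0 CPM in Trex1-KO (log2 fold change 1.57 ± 0.11, edgeR adjusted p = 2.27e-07). The gene for its alpha partner, listed as H2-Ea-ps, had 0 counts in every library. C57BL/6 mice are known to carry a defective copy of that gene and to make no H2-E heterodimer at the cell surface. At 0 counts these libraries allow up to 0.175 to 0.255 CPM.

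The H2-M genes moved less. H2-DMa was at 14.4 and 15.9 CPM in WT and 24.7 and 21.9 CPM in Trex1-KO, or 0.62 ± 0.11 higher on the log2 scale (edgeR adjusted p = 0.00164). H2-DMb1 was at 21.9 and 22.6 CPM in WT and 30.3 and 30.9 CPM in Trex1-KO, or 0.46 ± 0.09 higher on the log2 scale (edgeR adjusted p = 0.00327). The 95% intervals of Cd74, H2-Aa, H2-Ab1 and H2-Eb1 began at 1.29 or above, and those of H2-DMa and H2-DMb1 ended at 0.87 or below. The level of H2-DMa per kilobase was 0.629 and 0.654 of that of H2-Aa in WT and 0.289 and 0.265 of it in Trex1-KO.

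H2-DMb2, the other H2-M beta chain gene, had 17 to 30 counts per library. Its levels were 1.25 and 1.90 CPM in WT and 1.43 and 1.38 CPM in Trex1-KO, with the Trex1-KO values between those of WT. Its log2 fold change was -0.17, with a 95% interval from -0.95 to 0.61 that holds the value of H2-DMb1 (edgeR adjusted p = 0.823). H2-Oa had 0 and 1 counts in WT, 1 and 3 in Trex1-KO, 3 and 2 with H151, and 6 and 0 with SN-011, and it was not tested.

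Ciita, the transactivator, was low. It had 43 and 49 counts in WT (3.17 and 3.32 CPM) and 121 and 97 in Trex1-KO (9.13 and 6.40 CPM). Both Trex1-KO libraries were above both WT libraries, and the log2 fold change was 1.25 ± 0.23 (edgeR adjusted p = 0.00156). These counts are per gene and do not separate the alternative first exons from which Ciita is transcribed.

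**Figure D2:**
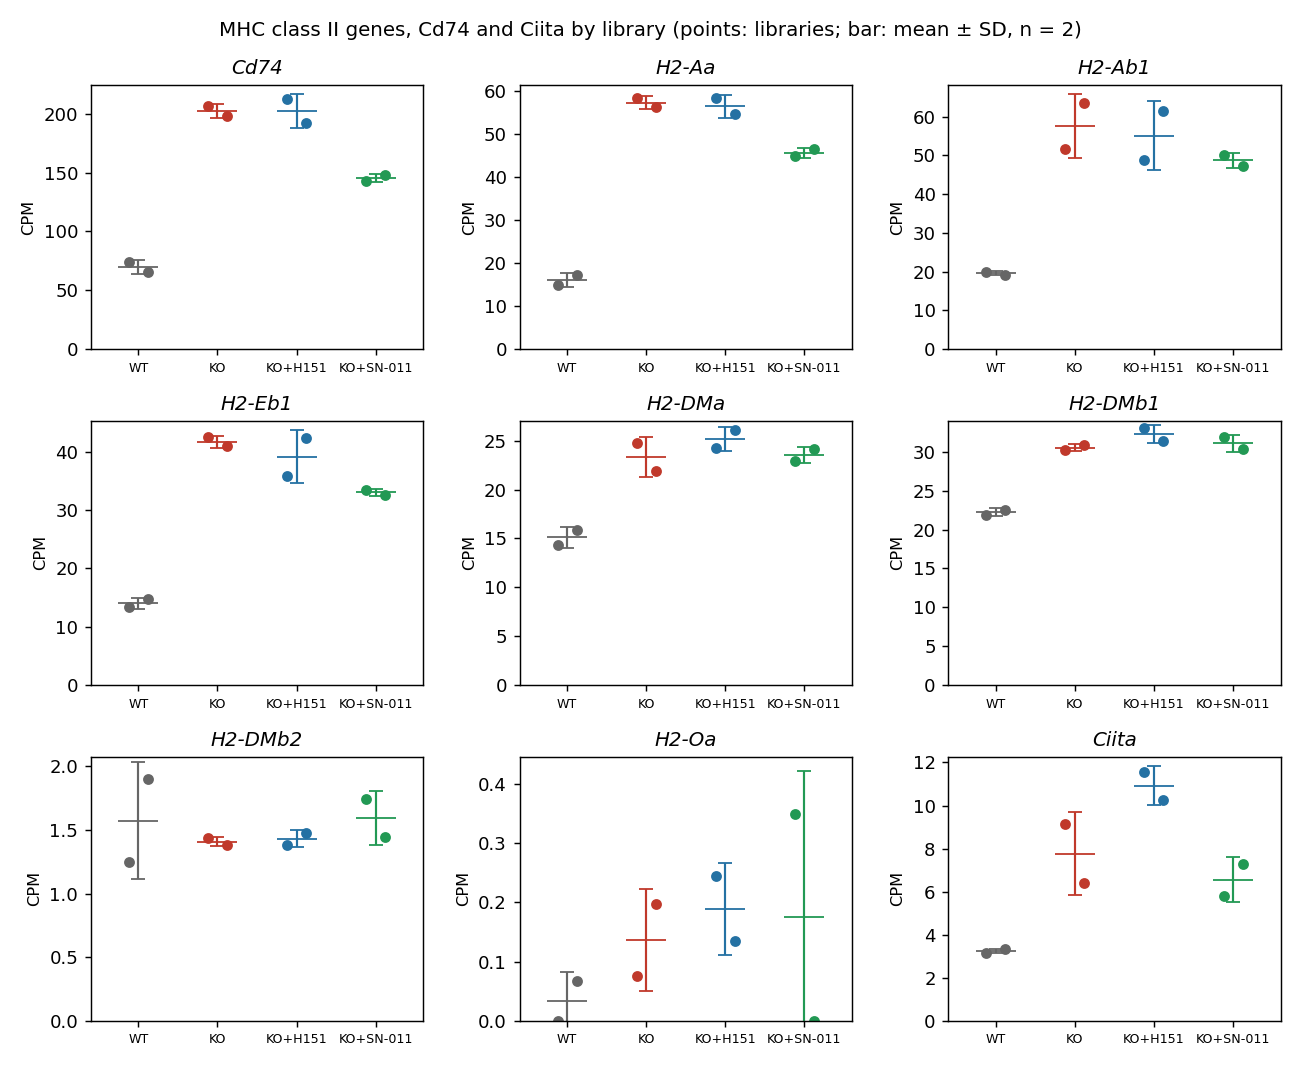
CPM (y axis, from 0) of the 9 members in each library (points) with the mean ± SD of 2 libraries per group. Cd74, H2-Aa, H2-Ab1 and H2-Eb1 were 2.90- to 3.56-fold higher in Trex1-KO than in WT cells, H151 libraries overlapped Trex1-KO libraries for these genes, and SN-011 libraries lay below both Trex1-KO libraries.

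The comparison with H151 asks whether these levels in Trex1-KO cells moved when STING was inhibited. None of the 8 tested members was called with H151 in edgeR's quasi-likelihood test, beside 2.23% of all tested genes called in either direction. DESeq2 and edgeR's exact test also called 0, and 1 member, Ciita, had an unadjusted p under 0.05. The median log2 fold change of the members was 0.013, beside 0.0012 over all tested genes.

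Cd74 was at 212.6 and 192.0 CPM with H151, around the Trex1-KO values of 206.6 and 197.9. H2-Aa was at 58.3 and 54.5 CPM, H2-Ab1 at 48.9 and 61.4 CPM and H2-Eb1 at 35.9 and 42.5 CPM. All 4 overlapped the Trex1-KO libraries. The 95% intervals of the log2 fold change ran from -0.15 to 0.15 for Cd74, from -0.20 to 0.16 for H2-Aa, from -0.31 to 0.18 for H2-Ab1 and from -0.30 to 0.12 for H2-Eb1. Falls larger than these lower bounds lay outside the intervals, and smaller falls or rises did not.

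For the H2-M genes, H2-DMa was at 24.3 and 26.1 CPM (log2 interval from -0.12 to 0.35) and H2-DMb1 at 33.1 and 31.4 CPM (log2 interval from -0.12 to 0.27). H2-DMb2 was at 1.39 and 1.48 CPM, with an interval too wide to place it (from -0.77 to 0.82). H2-DMb1 and Ciita had both H151 libraries above both Trex1-KO libraries, 2 of 8 members, beside 17.5% of all tested genes.

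Ciita reached its highest levels with H151, at 11.6 and 10.3 CPM. Its log2 difference from Trex1-KO was 0.50 ± 0.20, with a 95% interval from 0.075 to 0.92, and it did not pass the threshold (edgeR adjusted p = 0.384, unadjusted p = 0.0245). The log2 difference was 0.77 without Trex1-KO replicate 1 and 0.26 without Trex1-KO replicate 2. Against WT, 7 members were called higher with H151, beside 6.79% of all tested genes called higher. The log2 fold changes against WT with H151 were 1.54 for Cd74, 1.81 for H2-Aa, 1.49 for H2-Ab1, 1.48 for H2-Eb1, 0.74 for H2-DMa, 0.54 for H2-DMb1 and 1.75 ± 0.22 for Ciita (edgeR adjusted p = 0.00013 for Ciita). The comparisons share the WT libraries and are not independent of each other.

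SN-011 was the second antagonist. With it, 1 of the 8 tested members was called lower than in Trex1-KO cells, beside 2.22% of all tested genes, and 0 were called higher. The called gene was Cd74, at 142.8 and 147.9 CPM with SN-011, below both Trex1-KO libraries and above both WT libraries. Its log2 fold change was -0.48 ± 0.07, a level 0.719 times that of Trex1-KO (edgeR adjusted p = 0.00171). The call was lost without SN-011 replicate 1 (adjusted p = 0.0563). Over all alternatives this adjusted p ran from 2.33e-09 to 0.0563 and the log2 fold change from -0.51 to -0.44.

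H2-Aa (44.8 and 46.4 CPM), H2-Ab1 (50.0 and 47.4 CPM) and H2-Eb1 (33.5 and 32.6 CPM) also had both SN-011 libraries below both Trex1-KO libraries. With Cd74 this made 4 of 8 members, beside 21.6% of all tested genes. Their log2 fold changes did not pass the threshold, at -0.33 ± 0.08 for H2-Aa (edgeR adjusted p = 0.0630), -0.24 ± 0.11 for H2-Ab1 (edgeR adjusted p = 0.423) and -0.34 ± 0.10 for H2-Eb1 (edgeR adjusted p = 0.128). With a library left out H2-Ab1 ran from -0.38 to -0.086, the latter without Trex1-KO replicate 2. H2-Aa lay near the threshold and was called under 3 of the alternatives, with adjusted p from 0.0181 to 0.451 over all of them. H2-DMa (23.0 and 24.1 CPM) and H2-DMb1 (31.9 and 30.3 CPM) overlapped Trex1-KO, and their 95% log2 intervals ran from -0.22 to 0.25 and from -0.17 to 0.22. H2-DMb2, at 1.75 and 1.44 CPM, was above both Trex1-KO libraries, with an interval from -0.58 to 0.97. Ciita was at 5.82 and 7.30 CPM, overlapping Trex1-KO (log2 -0.25, interval from -0.69 to 0.19).

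Against WT, 7 members were called higher in SN-011-treated Trex1-KO cells, beside 6.18% of all tested genes. Log2 fold changes were 1.06 for Cd74, 1.50 for H2-Aa, 1.31 for H2-Ab1, 1.23 for H2-Eb1, 0.64 for H2-DMa, 0.49 for H2-DMb1 and 1.00 ± 0.23 for Ciita (edgeR adjusted p = 0.0112 for Ciita). The call of Ciita was lost without WT replicate 1 (adjusted p = 0.0849), without WT replicate 2 (0.0605) and without SN-011 replicate 2 (0.105), over a range from 0.000382 to 0.105.

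The antagonists were compared directly as 1 pair of compounds after the same time. Of the 8 tested members, 1 was called lower with SN-011 than with H151, beside 0.158% of all tested genes, and 0 were called higher. This was Cd74, with a log2 difference of -0.48 ± 0.07 and a 95% interval from -0.63 to -0.32 (edgeR adjusted p = 0.0192). The call was lost without H151 replicate 1 (adjusted p = 0.0707), SN-011 replicate 1 (0.422) or SN-011 replicate 2 (0.154), while the difference itself ran from -0.55 to -0.40. Over all alternatives the adjusted p ran from 2.16e-08 to 0.422.

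Ciita had the largest log2 difference between the antagonists, -0.75 with an interval from -1.18 to -0.32, at 5.82 and 7.30 CPM with SN-011 and 11.6 and 10.3 CPM with H151. It did not pass the threshold (edgeR adjusted p = 0.288). The other log2 differences were -0.31 for H2-Aa (interval from -0.49 to -0.13), -0.25 for H2-Eb1 (from -0.46 to -0.034), -0.18 for H2-Ab1 (from -0.43 to 0.067), -0.10 for H2-DMa (from -0.33 to 0.13), -0.05 for H2-DMb1 (from -0.24 to 0.14) and 0.17 for H2-DMb2 (from -0.61 to 0.95). With a library left out H2-Eb1 ran from -0.36 to -0.12 and H2-Ab1 from -0.33 to -0.0037, the values nearest 0 without H151 replicate 2. Both SN-011 libraries were below both H151 libraries for Cd74, H2-Aa, H2-Eb1, H2-DMa and Ciita, 5 of 8 members, beside 20.0% of all tested genes.

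**Figure D3:**
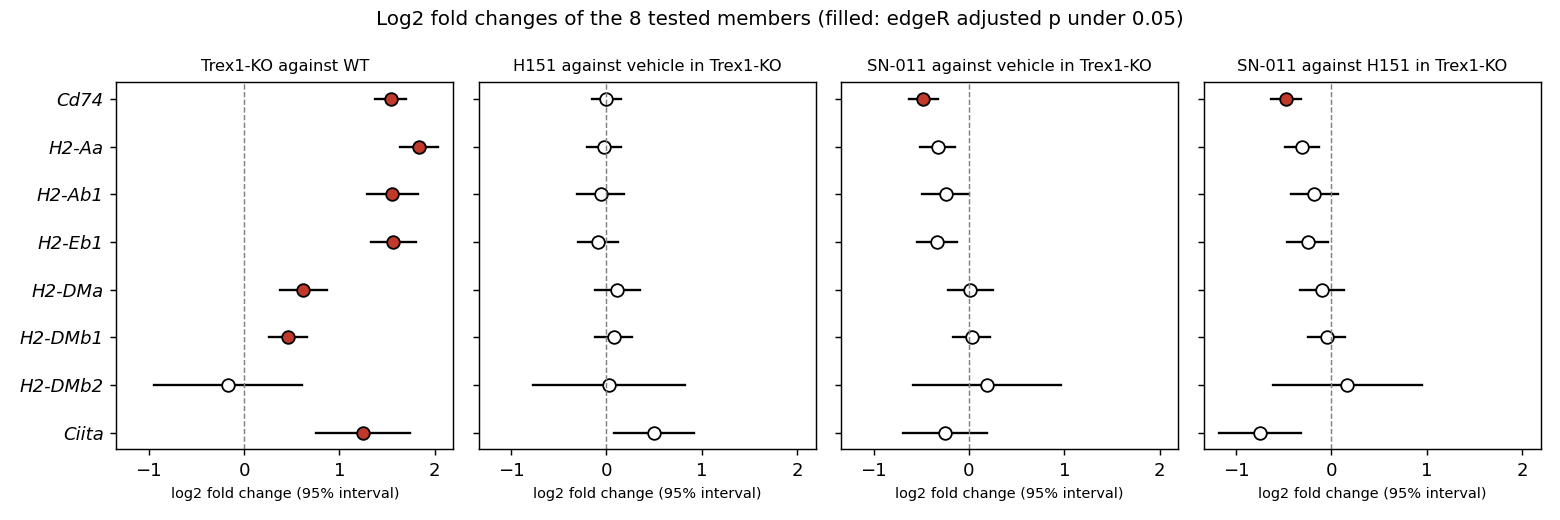
Log2 fold change (x axis) with 95% interval of the 8 tested members in 4 comparisons, filled where the edgeR adjusted p was under 0.05. Trex1-KO against WT has 7 filled points, H151 has 0, and SN-011 against vehicle and against H151 has 1 each, Cd74 at -0.48.

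Genes for the factors that bind class II promoters (Rfx5, Rfxap, Rfxank, Nfya, Nfyb, Nfyc and Creb1) were not called higher in Trex1-KO cells. By edgeR's quasi-likelihood test 0 of the 7 passed the threshold in that direction, and 1 had an unadjusted p under 0.05. Over all tested genes 9.27% were called higher and 7.11% lower, so 0 of 7 does not set this list apart. Rfxap, a subunit of RFX, was called lower, with 20.8 and 23.2 CPM in WT and 14.9 and 14.97 CPM in Trex1-KO (log2 -0.56 ± 0.13, edgeR adjusted p = 0.00633). The median log2 fold change of the list was 0.018. With either antagonist against vehicle 0 of the 7 were called, beside 2.23% of all tested genes with H151 and 340 of 14591 with SN-011. At an unadjusted p under 0.05, 0 of the 7 were higher with H151 and 2 with SN-011.

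Genes that supply peptide or turn class II over were read next. In Trex1-KO cells 6 of 8 were called higher, beside 9.27% of all tested genes, with a median log2 fold change of 0.26. The largest were Ctss, the cathepsin that trims the invariant chain (0.48 ± 0.06, edgeR adjusted p = 4.62e-05), March1, a ubiquitin ligase that removes class II from the surface (0.38 ± 0.06, adjusted p = 0.000541), and Ctsl, another cathepsin (0.30 ± 0.06, adjusted p = 0.00196). With H151, 1 of the 8, Ctsl, was called higher than in Trex1-KO cells, where 56 of 14591 tested genes were called higher. Ctsl was at 1480 and 1571 CPM with H151 beside 1203 and 1217 CPM (log2 0.33 ± 0.06, edgeR adjusted p = 0.00373). With SN-011 against vehicle 0 of the 8 were called by the same test, beside 340 of 14591 tested genes. Of the 8, 1 was lower at an unadjusted p under 0.05.

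On the route from interferon-gamma to Ciita, Irf1, a transcription factor that binds the Ciita gene, was called higher in Trex1-KO cells, from 90.8 and 76.7 CPM in WT to 137.8 and 123.3 CPM (log2 0.64 ± 0.09, edgeR adjusted p = 0.000122). Socs1, an inhibitor of cytokine receptor signalling, had 10 and 13 counts in WT and 24 and 35 in Trex1-KO. At these low counts it was also called higher (log2 1.34 ± 0.42, edgeR adjusted p = 0.0444). So was Jak2, a kinase of the interferon-gamma receptor (log2 0.33 ± 0.08, edgeR adjusted p = 0.0121). Ifng itself had 0 counts in 7 libraries and 1 count in SN-011 replicate 1.

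Irf1 was called lower with each antagonist, where 1.84% of all tested genes were called lower with H151 and 2.22% with SN-011. It was at 84.6 and 91.1 CPM with H151 and 87.5 and 82.5 CPM with SN-011, below both Trex1-KO libraries. Its log2 fold change was -0.57 with H151 (95% interval from -0.75 to -0.39, edgeR adjusted p = 0.00167) and -0.62 with SN-011 (from -0.80 to -0.43, edgeR adjusted p = 0.000902). With H151, the interval of Irf1 lay below those of Cd74, H2-Aa, H2-Ab1 and H2-Eb1, whose lower bounds were -0.31 or above. With SN-011 it overlapped the intervals of all these class II genes, whose lower bounds ran from -0.63 for Cd74 to -0.49 for H2-Ab1. The difference between genes was not tested.

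**Figure D4:**
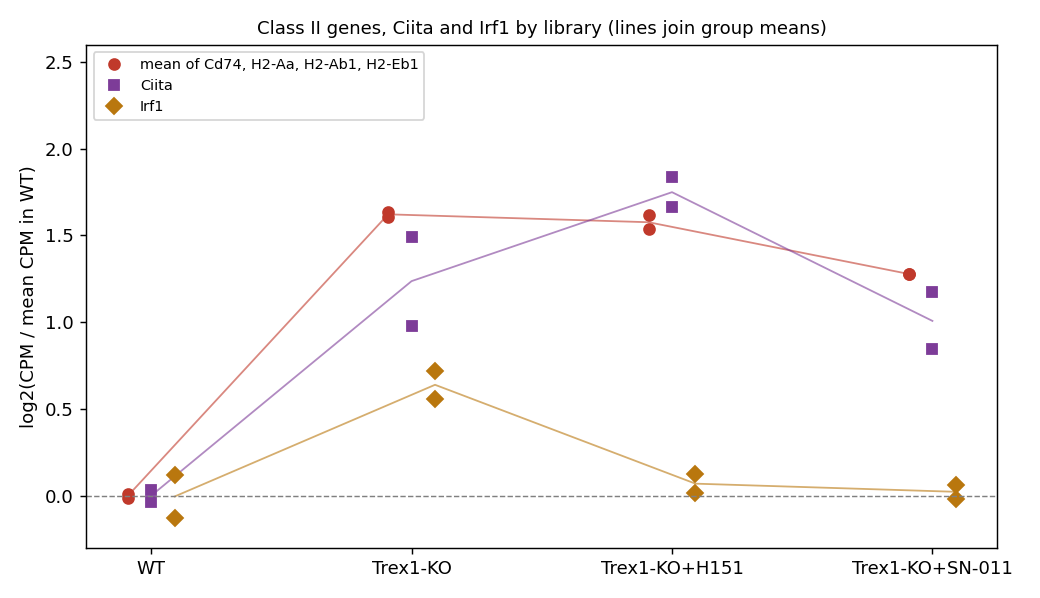
Log2 of CPM over the WT mean (y axis) per library for the mean of Cd74, H2-Aa, H2-Ab1 and H2-Eb1, and for Ciita and Irf1, with lines joining group means. The class II mean was 1.61 and 1.64 in Trex1-KO, 1.54 and 1.62 with H151 and 1.28 and 1.28 with SN-011, while Irf1 was 0.72 and 0.56 in Trex1-KO, 0.016 and 0.12 with H151 and 0.064 and -0.020 with SN-011.

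Among the genes between or beside the members on chromosomes 16 and 17, 3 of 9 were called higher in Trex1-KO cells, beside the same 9.27% of all tested genes: Tap1, a chain of the transporter that feeds peptide to MHC class I (log2 1.23 ± 0.07), Psmb9, an immunoproteasome subunit (0.76 ± 0.09), and Tap2, the partner of Tap1 (0.50 ± 0.09). With the antagonists 1 of the 9, Tap1, was called lower, beside 1.84% of all tested genes with H151 and 2.22% with SN-011. Its log2 fold change was -0.63 with H151 (interval from -0.78 to -0.48) and -0.57 with SN-011 (from -0.73 to -0.42). Of the other class II genes, H2-Ob had 8 to 18 counts per library and was not called in Trex1-KO cells (log2 -0.83, edgeR adjusted p = 0.277), and H2-Eb2 had 0 to 3 counts.

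Markers of other cells that carry class II were read beside these results. All 6 B cell markers had at least 1 count in some library, and their summed level was 40.8 to 42.6 CPM in WT and 12.5 to 16.3 CPM in the 6 Trex1-KO libraries, and Ighm made most of it. Ighm was called lower in Trex1-KO (log2 -1.67 ± 0.11, edgeR adjusted p = 1.83e-07). Cd79b, a chain of the B cell receptor and the other tested marker, lay the other way and was not called, at 1.69 and 2.51 CPM in WT, 3.17 and 3.17 in Trex1-KO, 2.28 and 3.36 with H151 and 3.14 and 4.50 with SN-011 (log2 0.58 in Trex1-KO against WT, edgeR adjusted p = 0.258). In this list Pax5 had at most 1 count and Ms4a1 at most 2 in any library. Of 9 dendritic cell markers 7 were detected, and the list summed to 20.7 to 22.6 CPM in WT, 17.0 to 18.5 in Trex1-KO, 20.2 to 20.9 with H151 and 17.4 to 21.1 with SN-011, and Ccr7 and Cd209a were at 0 in every library. Within that list Xcr1 and Clec9a were called higher in Trex1-KO, from 1 to 5 counts in WT to 15 to 26 counts, and Kmo was called lower (log2 -0.69 ± 0.16).

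Markers of T and NK cells summed to 33.4 to 34.4 CPM in WT and 18.6 to 22.1 CPM in the 6 Trex1-KO libraries. Nearly all of this was Cd4, with Cd3e at 1 count or fewer and Cd3d at 2 or fewer. Neutrophil markers summed to 6.10 to 6.18 CPM in WT and 32.3 to 58.0 CPM in the 6 Trex1-KO libraries, led by S100a8 and S100a9, with Ly6g at 3 counts or fewer. Their part in the class II differences was not tested.

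Across the 8 libraries, log2 CPM of the tested members other than H2-DMb2 correlated pairwise with Pearson's r from 0.85 to 0.99, and H2-DMb2 correlated with them at -0.33 to -0.07. These values are a description of 8 points that share groups of 2, depth and library. Of 10650 genes whose log2 CPM averaged 2 or more, the 5 whose profile was most like the mean of Cd74, H2-Aa, H2-Ab1 and H2-Eb1 were Plcg2 (r = 0.993), Ly6a (0.993), Ly6e (0.990), Grn (0.989) and Coro2a (0.989). Ly6a, a GPI-anchored surface protein also called Sca-1, went from a mean of 11.3 CPM in WT to 424 in Trex1-KO, 446 with H151 and 307 with SN-011. Most like Ciita were Fam84b (r = 0.992), Lyst (0.985) and Lrrc25 (0.983), and Pld3 (0.982) took the place of Lrrc25 with a prior count of 0.5. Fam84b had a mean of 14.97 CPM in WT, 23.8 in Trex1-KO, 31.9 with H151 and 22.5 with SN-011.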

How the data were processed

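Polyadenylated RNA of 8 mouse BMDM libraries was sequenced as read pairs. The authors deposited raw counts per Ensembl gene, with no normalization, in 1 table per library. The study's methods name Trimmomatic, hisat2 and featureCounts, and the submitters' processing notes name HISAT2, HTSeq and mm10, so the counter is uncertain. Versions, annotation release and strand setting are not given in the sources used here. GENCODE release M21 (GRCm38) held 54495 of the 54532 identifiers and lacked 37.

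Groups were read from the sample titles. Counts were scaled by TMM factors (0.973 to 1.04) and fitted with edgeR 4.0.16 (R 4.3.3). Low counts were filtered by filterByExpr (minimum count 10, minimum total 15), 1 quasi-likelihood fit held all 8 libraries, and 6 contrasts were tested two-sided with Benjamini-Hochberg adjustment over 14591 genes at an FDR of 0.05. Approximate standard errors divide the size of a log2 fold change by the root of its F statistic. The common biological coefficient of variation was 0.0656. The fit was tested on simulated data. Alternatives were RLE size factors, total counts only, filters at 1 count and at 1 CPM in 2 libraries, DESeq2 1.42.0, edgeR's exact test, a fit of the 2 groups compared, a replicate block and each library left out.

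Correlations used log2 CPM with a prior count of 2. Promoter sequences came from RefSeq (GRCm38.p6), and the motifs were chosen after the sequences had been seen. The members and gene lists were chosen with earlier results of these data known. All 9 members are named. From each other list, counts of calls, the median and at most 3 called genes with the largest change are given, and any further gene named was chosen after its values were seen. Likeness names 5 genes for the class II mean and 3 for Ciita. Some genes of these lists are not reported here.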

Additional observations from a re-analysis of the deposited data

Results flagged for a closer look

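Cd74 was lower in the SN-011 libraries than in the H151 libraries. The difference between its log2 fold changes with SN-011 and with H151 was -0.48 (edgeR quasi-likelihood F-test, adjusted p = 0.0192), from a mean of 145.4 ± 3.61 CPM with SN-011 and 202.3 ± 14.5 CPM with H151 (SD, n = 2). The call was lost without H151 replicate 1 (adjusted p = 0.0707), SN-011 replicate 1 (0.422) or SN-011 replicate 2 (0.154), over a range from 2.16e-08 to 0.422. Both SN-011 libraries were below both H151 libraries. The SN-011 libraries belong to a later set of records, and that set and the antagonist cannot be told apart.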

How the results depend on the processing

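The 7 member calls in Trex1-KO against WT were made under all 8 alternatives other than leaving out a library and with each library left out, as were the 7 with H151 against WT, and H151 against vehicle gave 0 calls under each. Against WT with SN-011, the leave-outs that lost Ciita are given in the report. With SN-011 against vehicle, 2 members (Cd74 and H2-Aa) were called with a filter at 1 count, with edgeR's exact test and in a fit of only the 2 groups compared, in place of 1, and 0 to 1 with a library left out. With SN-011 against H151, 2 members (Cd74 and Ciita) were called with a filter at 1 count, in place of 1, and 0 to 1 with a library left out. The cause was not tested. Among the member values, signs turned for uncalled ones. Cd74 with H151 against vehicle was 0.025 with total counts only, 0.0011 with the filter at 1 CPM and 0.0016 in the fit of 2 groups, H2-Aa was 0.0032 with total counts only, and H2-DMb2 with SN-011 against WT was -0.031 with total counts only. With a library left out, log2 fold changes with H151 against vehicle ran from -0.073 to 0.072 for Cd74, -0.068 to 0.027 for H2-Aa, -0.24 to 0.098 for H2-Ab1, -0.22 to 0.027 for H2-Eb1 and -0.024 to 0.071 for H2-DMb2. Among uncalled values that kept their sign, those that moved by over 1.5 times include Ciita with H151 against vehicle (0.26 to 0.77), given in the report, H2-DMa with H151 (0.028 to 0.20) and H2-DMb2 with SN-011 (0.032 to 0.31) against vehicle, and H2-DMb1 (-0.091 to -0.011), H2-DMa (-0.15 to -0.048) and H2-DMb2 (0.0071 to 0.28) between the antagonists. Sign-turning values with SN-011 against vehicle ran from -0.49 to 0.024 for Ciita, -0.074 to 0.11 for H2-DMa and -0.015 to 0.064 for H2-DMb1. For H2-DMb2 against WT they ran from -0.44 to 0.16 in Trex1-KO, -0.42 to 0.19 with H151 and -0.25 to 0.35 with SN-011. Without TMM factors the median of all genes in Trex1-KO against WT moved to -0.087 and 946 of 2544 called genes were higher, beside 1352 higher and 1038 lower with them, and the 7 member calls were made in both. Same-numbered libraries deviated together little (r from -0.02 to 0.19 across genes), so the numbers were not taken to pair the samples. The replicate block changed no member call (7 members against WT in Trex1-KO and with each antagonist, 0 with H151, 1 with SN-011 and 1 between the antagonists) and raised calls over all genes for SN-011 against H151 from 23 (0 higher) to 44 (6 higher). Depth limits H2-DMb2, H2-Oa and Ciita most.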
